A study of Mus musculus with 6 samples.

Results

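The angiopoietins and the vascular endothelial growth factors (VEGFs) are the secreted proteins that start, shape and stabilise blood vessels. This report describes 5 genes of these families, Angpt1, Angpt2, Angptl4, Vegfa and Pgf, in mouse embryonic fibroblasts (MEFs), out of 38483 genes listed for each culture. They were chosen by name, and the group was selected on the lower counts of Angpt1 and Angptl4 in Nipbl+/- MEFs. The WT against Nipbl+/- values of Angpt1 and Angptl4 are therefore given as a description, without a test, and the question asked is whether Angpt2, Vegfa and Pgf differed too. All 5 lie on the minus strand, had counts in every culture and were among the 9061 genes with enough counts for the test.

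RNA-seq was carried out on 3 WT and 3 Nipbl+/- cultures of passage 3, all from the CD1 strain and without treatment. Nipbl+/- cells carry a heterozygous knockout of Nipbl, the loading factor of cohesin, in every cell, and the WT embryos were littermates. MEFs were grown from minced mid-gestation embryos after removal of limbs, brain and internal organs. The methods describe embryos of a single pregnant mouse and do not say how many embryos went into each culture, so p-values measure the spread between these cultures.

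ANGPT1 and ANGPT2 bind the same receptor, TIE2 (gene Tek), on endothelial cells. ANGPT1, made by fibroblast-like and perivascular cells, activates TIE2 and keeps vessels quiet and tight, and ANGPT2, known mainly from endothelial cells, antagonises it in many settings. VEGFA drives endothelial growth through VEGFR2 (gene Kdr), and PGF, placental growth factor, binds VEGFR1 (gene Flt1) and not VEGFR2. ANGPTL4 resembles the angiopoietins in structure but does not bind TIE2, and is best known as an inhibitor of lipoprotein lipase.

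The total count lay between 20307454 and 25990783 reads per culture. All 19214 genes of the plus strand were listed at 0 in every culture, so that Tek, Vegfc, Hif1a, Lpl and other relatives on that strand were not analysed here. Nipbl itself had 136 ± 8.26 CPM (SD, n = 3; CPM is the count scaled to sequencing depth by TMM) in WT against 101 ± 0.505 CPM in Nipbl+/- MEFs, without overlap. The X-linked Xist ranged from 0.0445 to 361 CPM in WT (mean 121) and from 0.286 to 340.2 CPM in Nipbl+/- MEFs (mean 214). The Y-linked Ddx3y ranged from 0.510 to 266 CPM in WT (mean 169.9) and from 0.180 to 250.2 CPM in Nipbl+/- MEFs (mean 83.5). The labels do not give the sex of the embryos, and its part in the values of the 5 genes was not tested. The Xist level served as a covariate in an alternative fit. Over all tested genes, the edgeR quasi-likelihood (QL) test called 94 (1.04%) higher and 83 (0.916%) lower in Nipbl+/- MEFs (adjusted p-value under 0.05), and scaling by library size alone gave 142 higher and 70 lower genes.

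Angpt1 had the largest log2 fold change of the 5 genes, which were selected partly on it. It lies on chromosome 15 of mm10 from 42424727 to 42676977 and has up to 9 exons in the GENCODE M21 annotation, which also places the antisense gene Gm17473 over it. Its 3 WT cultures had 24.9, 23.7 and 29.9 CPM, from 548, 532 and 644 reads. The 3 Nipbl+/- cultures had 9.38, 10.6 and 10.5 CPM, from 208, 277 and 220 reads. The highest Nipbl+/- culture was thus under the lowest WT culture, and the Nipbl+/- cultures lay close to each other. The level was 26.1 ± 3.29 CPM in WT against 10.2 ± 0.674 in Nipbl+/- MEFs (SD, n = 3 each), a fold change of 0.389 (log2 fold change -1.36, standard error 0.11). In bulk RNA, fewer cells that express a gene and less RNA per cell cannot be told apart.

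Angpt2, the other TIE2 ligand measured, differed in the opposite direction. It lies on chromosome 8 from 18690263 to 18741562, inside the span of Mcph1 on the opposite strand. Mcph1 was listed at 0 with the rest of the plus strand. The strand setting of the counting is not given in the sources used here, so reads of both genes may not be told apart where they overlap. Angpt2 had 7.08, 8.90 and 4.92 CPM in WT replicates 1, 2 and 3. In Nipbl+/- replicates 1, 2 and 3 it had 11.5, 11.4 and 9.55 CPM. All Nipbl+/- cultures were above all WT cultures, with the smallest gap between WT replicate 2 and Nipbl+/- replicate 3. The mean was 6.97 ± 1.99 CPM in WT against 10.8 ± 1.10 in Nipbl+/- MEFs (SD, n = 3 each), a fold change of 1.55 with a 95% interval from 1.13 to 2.14. The log2 fold change was 0.63 (standard error 0.20, unadjusted p = 0.0129), and it did not pass the threshold after adjustment over all tested genes (edgeR QL, adjusted p = 0.159).

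The balance of both ligands was read from RPKM, the authors' value per gene length. Angpt1 exceeded Angpt2 3.05-, 2.31- and 5.27-fold in WT replicates 1, 2 and 3. In Nipbl+/- MEFs the ratio of Angpt1 to Angpt2 was 0.707, 0.806 and 0.954, so that Angpt2 was the higher of both in each Nipbl+/- culture and the lower in each WT culture. The mean ratio of the WT cultures was 3.54 ± 1.54, against 0.822 ± 0.124 for Nipbl+/- MEFs (SD, n = 3 each). Since Angpt1 chose the group, this ratio was not tested.

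Angptl4, on chromosome 17 from 33773750 to 33781575, was the other gene that chose the group. It had 17.5, 14.5 and 12.7 CPM in the WT cultures, from 386, 326 and 273 reads. The Nipbl+/- cultures had 9.20, 7.83 and 9.31 CPM, from 204, 205 and 195 reads. The genotypes did not overlap, and the WT cultures spread more widely than the Nipbl+/- cultures. The means were 14.9 ± 2.45 and 8.78 ± 0.822 CPM (SD, n = 3 each), a fold change of 0.589 (log2 fold change -0.76, standard error 0.14).

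Vegfa was by far the most expressed of the 5 genes and differed least. It lies on the same chromosome, from 46016993 to 46032377, and GENCODE M21 lists 13 transcripts for it, which the counts do not separate. The WT cultures had 149.5, 149 and 144 CPM, from 3296, 3357 and 3109 reads. The Nipbl+/- cultures had 135, 124 and 118 CPM. The genotypes did not overlap, and the WT values were nearly equal. Vegfa had 148 ± 3.02 CPM in WT against 126 ± 8.47 in Nipbl+/- MEFs (SD, n = 3 each), a fold change of 0.850 with a 95% interval from 0.772 to 0.935. The log2 fold change of -0.23 (standard error 0.06) had an unadjusted p-value of 0.0043 and an adjusted p-value of 0.0941 (edgeR QL). In DESeq2 the adjusted p-value was 0.0324, and over all alternatives it ranged from 0.0324 to 0.267.

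Pgf, on chromosome 12 from 85166639 to 85177296, varied more between cultures than between genotypes. It had 11.6, 14.9 and 7.10 CPM in WT replicates 1, 2 and 3. The Nipbl+/- values were 9.74, 6.69 and 7.35 CPM, within or just under the WT range. WT replicate 3 was below Nipbl+/- replicates 1 and 3, and 7 of the 9 pairs had the lower value in the Nipbl+/- culture. The means were 11.2 ± 3.92 and 7.93 ± 1.61 CPM (SD, n = 3 each), and the fold change of 0.707 had a 95% interval from 0.468 to 1.07 (edgeR adjusted p = 0.375; log2 fold change -0.50, SE 0.26). This interval holds both no difference and a loss larger than that of Angptl4. The log2 fold change of Pgf was -0.24 without WT replicate 2, -0.74 without WT replicate 3 and -0.32 with the Xist level as a covariate.

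**Figure D1:**
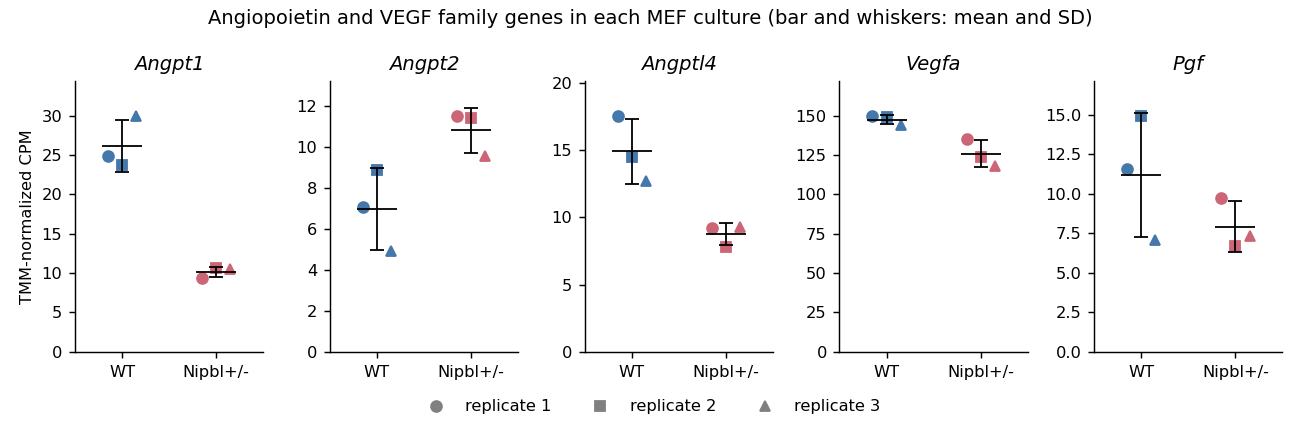
TMM-normalized CPM (vertical axes, each from 0) of the 5 genes in the 3 WT and 3 Nipbl+/- cultures, with a symbol for each replicate number and the mean and SD in black. The genotypes are apart for Angpt1, Angpt2, Angptl4 and Vegfa and overlap for Pgf, and only Angpt2 is higher in Nipbl+/- MEFs.

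Of the 3 genes that did not choose the group, 0 passed an adjusted p-value of 0.05 (edgeR QL), against 1.04% of all tested genes higher and 0.916% lower. At an unadjusted p-value under 0.05, 2 of the 3 passed, Angpt2 as higher and Vegfa as lower, while 8.98% of all tested genes were higher and 7.95% lower at that p-value. DESeq2 called 1 of the 3, Vegfa as lower, beside 237 higher and 212 lower genes among all 9061 tested. The exact and likelihood ratio tests of edgeR each called 0 of the 3, as did limma on RPKM. All Nipbl+/- cultures were above all WT cultures for Angpt2, as for 12.0% of the tested genes, and below all WT cultures for Vegfa, as for 10.8%. With 3 cultures against 3, a two-sided exact permutation test of a single gene cannot give a p-value below 0.1. The lower expression of Angpt1 and Angptl4 was thus not shown at the threshold for the other 3 genes, and the measured direction was downward for Vegfa and Pgf and upward for Angpt2.

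The order of the 5 genes by RPKM differed between genotypes. In WT MEFs Vegfa was first at 32.8 ± 0.124 RPKM, followed by Pgf at 6.70 ± 2.24, Angpt1 at 5.86 ± 0.884, Angptl4 at 4.31 ± 0.625 and Angpt2 at 1.79 ± 0.482 RPKM (SD, n = 3 each). The values of Pgf and Angpt1 overlapped in WT, as did those of Pgf and Angptl4 through WT replicate 3, and the other neighbours in this order did not. In Nipbl+/- MEFs Vegfa at 28.7 ± 1.58 and Pgf at 4.91 ± 0.955 RPKM stayed first and second. Angpt2 at 2.87 ± 0.252, Angptl4 at 2.62 ± 0.262 and Angpt1 at 2.34 ± 0.177 RPKM followed. The values of Angptl4 overlapped with those of both other genes, and all Angpt2 values were above all Angpt1 values. Angpt1 was thus above Angptl4 and Angpt2 in WT and had the lowest mean in Nipbl+/- MEFs, and Angpt2 was last in WT. Since Angpt1 and Angptl4 chose the group by their decrease, the change of order is a description and was not tested.

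The ratio of both VEGF ligands measured did not separate the genotypes. RPKM of Vegfa divided by that of Pgf was 4.76, 3.69 and 7.49 in the WT cultures and 5.10, 6.83 and 5.91 in the Nipbl+/- cultures (exact permutation test, two-sided, p = 0.600, and 0.600 after adjustment over 2 ratios). Vegfa over Angpt2 was 18.2, 14.4 and 25.2 in WT and 10.1, 9.36 and 10.6 in Nipbl+/- MEFs. All WT ratios were above all Nipbl+/- ratios, and the exact permutation p-value of 0.1, 0.200 after adjustment, is the smallest this design allows before adjustment.

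**Figure D2:**
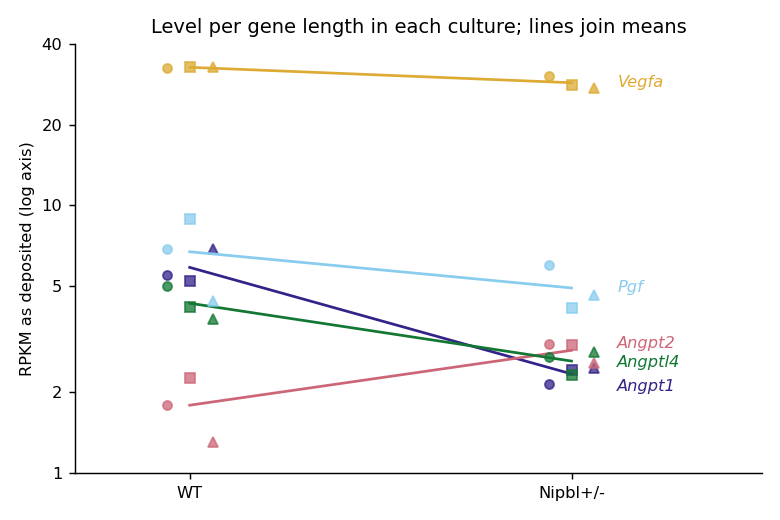
RPKM as deposited (log axis) of the 5 genes in each culture, with symbols by replicate number as in the plot of CPM and lines that join the genotype means. The line of Angpt2 crosses those of Angpt1 and Angptl4, and Vegfa stays above 27 RPKM in every culture.

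The fold changes were recomputed with other tests, scalings and filters, and with each culture left out. Angpt1 stayed between a log2 fold change of -1.43 and -1.26 over all 17 alternative fits, Angptl4 between -0.87 and -0.63, and Vegfa between -0.29 and -0.19. Angpt2 stayed between 0.44 without WT replicate 3 and 0.85 without WT replicate 2. Its adjusted p-value ranged from 0.0503 to 0.358 over the alternatives. Pgf had the widest range, and no gene changed its direction in any of these fits. Where the genotypes do not overlap, as for all members but Pgf, leaving out 1 culture cannot reverse the direction.

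**Figure D3:**
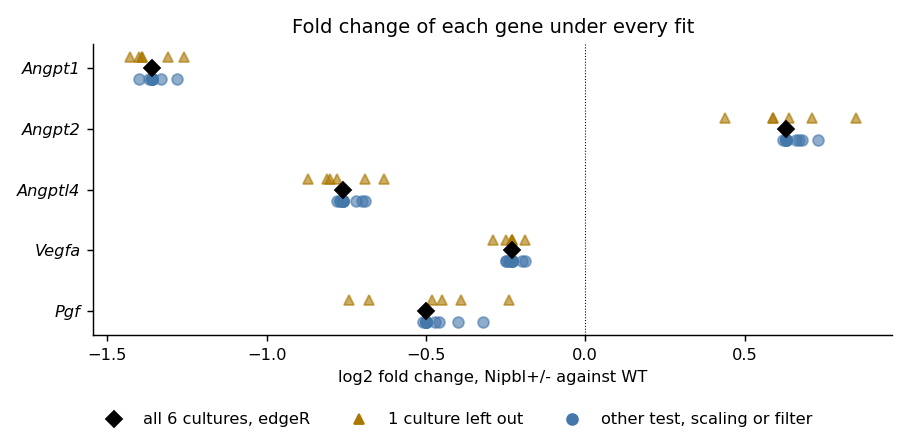
Log2 fold change of Nipbl+/- against WT MEFs (horizontal axis) of the 5 genes with all 6 cultures (diamond), with 1 culture left out (triangles) and under another test, scaling or filter (circles). Every symbol of Angpt1, Angptl4, Vegfa and Pgf is left of 0 and every symbol of Angpt2 is right of 0.

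The rest of the pathway was read from lists of 183 genes, 92 of them on the plus strand, at 0. Of the 87 that could be tested, 1 was higher and 1 was lower at an adjusted p-value under 0.05 (edgeR QL). Of all tested genes, 1.04% were higher and 0.916% lower at that threshold, a share close to that of the 87. The median log2 fold change of the 87 genes was -0.03, and that of all tested genes was -0.006. Unadjusted p-values under 0.05 were found for 7 higher genes (8.05%) and 16 lower genes (18.4%), beside 8.98% and 7.95% of all tested genes. The Nipbl+/- cultures were all above the WT cultures for 8 of the 87 genes (9.20%) and all below for 13 (14.9%), beside 12.0% and 10.8% of all tested genes.

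Among further ligands, 2 angiopoietin-like genes and 3 of the VEGF and PDGF families were tested, and none of the 5 passed the threshold. Angptl7 had a log2 fold change of -2.35, with a standard error of 1.08. Its values were 12.9, 0.267 and 22.7 CPM in WT, while Nipbl+/- MEFs had 0.541, 1.61 and 5.01 CPM, so that WT replicate 2 was the lowest of all 6 cultures (edgeR adjusted p = 0.318). Angptl6 had 2.43 ± 0.362 and 2.09 ± 0.541 CPM (SD, n = 3 each; edgeR adjusted p = 0.721). Vegfb, a VEGFR1 ligand like PGF, had 12.5 ± 0.487 CPM in WT against 13.4 ± 1.43 in Nipbl+/- MEFs. Pdgfa, a growth factor for mesenchymal cells, had 63.7 ± 2.73 and 66.8 ± 3.80 CPM, and Pdgfb had 1.24 ± 0.332 and 1.16 ± 0.366 CPM (SD, n = 3 each).

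No difference was detectable for the receptors with these cultures. Of 11 listed, 7 lie on the plus strand, among them Tek, Flt4, Nrp1 and Nrp2, and 4 were tested with log2 fold changes from -0.08 to 0.08. Flt1, which encodes VEGFR1, had 70.1 ± 19.2 CPM in WT against 66.2 ± 14.1 in Nipbl+/- MEFs (SD, n = 3 each; edgeR adjusted p = 0.883). Kdr, which encodes VEGFR2, had 12.9 ± 1.95 and 12.8 ± 2.62 CPM (edgeR adjusted p = 0.981). Tie1, an orphan relative of TIE2, had 1.21 ± 0.304 and 1.19 ± 0.292 CPM (edgeR adjusted p = 0.985). Itga5, an integrin subunit that can bind angiopoietins, had 315 ± 32.0 and 334 ± 39.2 CPM (SD, n = 3 each; edgeR adjusted p = 0.719).

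The list of other secreted angiogenic factors also holds ligands bound to the cell surface, among them Jag1. Of its 12 tested genes, 0 were higher and 3 were lower at an unadjusted p-value under 0.05 (edgeR QL). Of all tested genes, 8.98% were higher and 7.95% lower at that p-value. The Nipbl+/- cultures were all below the WT cultures for 2 of the 12, beside 10.8% of all tested genes, and all above for 0, beside 12.0%. Only Hbegf, the heparin-binding EGF-like growth factor, passed the adjusted threshold, as lower. It had 189, 189.8 and 161 CPM in the WT cultures and 136, 118 and 112 CPM in the Nipbl+/- cultures, without overlap. Its log2 fold change was -0.56 (standard error 0.09, edgeR adjusted p = 0.0288). With a culture left out, Hbegf passed in 2 of 6 fits, those without WT replicate 2 or 3, and its adjusted p-value in edgeR reached 0.119 without WT replicate 1. Cyr61, a matrix protein that attracts endothelial cells, was at 653 ± 14.1 and 669 ± 70.4 CPM, Ptn at 168 ± 24.8 and 223 ± 62.2 CPM and the Notch ligand Jag1 at 203 ± 51.1 and 164 ± 33.1 CPM (SD, n = 3 each), and none of these passed.

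Apln, which encodes the vessel-guiding peptide apelin and was picked after its values were seen, had 8.03, 2.98 and 12.3 CPM in WT, while Nipbl+/- MEFs had 1.76, 2.68 and 3.63 CPM. WT replicate 2 was below Nipbl+/- replicate 3, and the log2 fold change of -1.53 (standard error 0.47) had an adjusted p-value of 0.150 (edgeR QL). Svep1, an extracellular protein of lymphatic vessels that can bind angiopoietins and was likewise picked later, had 355 ± 99.8 and 270.4 ± 41.0 CPM (SD, n = 3 each; edgeR adjusted p = 0.337).

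Genes whose products restrain vessels did not pass the threshold either, with 0 of 12 called, although 1 was higher and 4 were lower at an unadjusted p-value under 0.05 (edgeR QL). These are 8.33% and 33.3% of the list, beside 8.98% and 7.95% of all tested genes. Their median log2 fold change was -0.13. Sparc, a matrix protein that binds VEGF, had 4784 ± 113 CPM in WT against 4431 ± 174 in Nipbl+/- MEFs, and Timp2, a metalloproteinase inhibitor, had 1184 ± 90.3 and 989 ± 36.0 CPM (SD, n = 3 each). Serpinf1, which encodes the antiangiogenic factor PEDF and was picked after its values were seen, had 567 ± 15.5 and 469.7 ± 70.0 CPM (SD, n = 3 each). The adjusted p-values of these genes (edgeR QL) were 0.267 for Sparc, 0.0729 for Timp2 and 0.201 for Serpinf1. Thbs2, which encodes thrombospondin-2, had 1411 ± 318 and 1211 ± 215 CPM (SD, n = 3 each; edgeR adjusted p = 0.564). Col4a1, whose collagen chain holds an antiangiogenic fragment, had 2510 ± 267 and 2430 ± 354 CPM (edgeR adjusted p = 0.873).

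Signalling genes downstream of TIE2 and the VEGF receptors had log2 fold changes from -0.28 to 0.25, and 0 of 12 passed the threshold, with 3 of the 12 higher and 1 lower at an unadjusted p-value under 0.05 (edgeR QL), beside 8.98% and 7.95% of all tested genes. The Nipbl+/- cultures were all above the WT cultures for 5 of the 12 (41.7%), beside 12.0% of all tested genes, and all below for 0. Akt1, the kinase through which TIE2 signals survival, had 599.9 ± 7.97 and 599 ± 17.6 CPM (SD, n = 3 each). Rac1, Map2k1 and Ptpn11, the other most expressed genes of this list by RPKM, had log2 fold changes of 0.05, -0.04 and 0.04.

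ANGPTL4 is induced by fatty acids through PPAR factors, and by hypoxia. Of 15 tested genes around lipoprotein lipase and the PPARs, 1 passed the threshold, and 3 of the 15 were higher and 4 lower at an unadjusted p-value under 0.05, beside 8.98% and 7.95% of all tested genes. Acadm, a mitochondrial enzyme of fatty acid oxidation, rose from 53.2, 57.4 and 54.0 CPM in WT to 73.0, 67.2 and 74.5 CPM in Nipbl+/- MEFs. The part of the genes of this list in the values of Angptl4 was not tested. The log2 fold change of Acadm was 0.38 (standard error 0.06, edgeR adjusted p = 0.0234). With a culture left out it passed in 1 of 6 fits, that without WT replicate 2. Its adjusted p-value in the other fits (edgeR QL) was between 0.0579 and 0.119.

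Plin2, a lipid droplet protein and the most expressed gene of this list, had 335 ± 50.4 and 291 ± 11.5 CPM (SD, n = 3 each; edgeR adjusted p = 0.349). Acadvl and Hadha, further enzymes of fatty acid oxidation, had log2 fold changes of -0.13 and 0.08. Fabp4, a fatty acid carrier picked after its values were seen, had 19.1, 12.2 and 16.5 CPM in WT, while Nipbl+/- MEFs had 11.9, 8.29 and 9.21 CPM, without overlap (log2 fold change -0.70, edgeR adjusted p = 0.105).

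Other genes of the hypoxia response, which also induces Vegfa and Angptl4, centred on a log2 fold change of -0.03 (median of 27 tested genes). None passed the threshold (edgeR QL), and 0 were higher and 4 (14.8%) were lower at an unadjusted p-value under 0.05, beside 8.98% and 7.95% of all tested genes. The glycolytic gene Aldoa had 1055 ± 69.6 and 1058 ± 43.8 CPM and Mif had 242 ± 15.7 and 234 ± 10.9 CPM (SD, n = 3 each). Lox, the collagen and elastin crosslinking enzyme, had 5761, 5429 and 6719 CPM in WT, while Nipbl+/- MEFs had 5119, 4635 and 4288 CPM (edgeR adjusted p = 0.0920), a difference of -0.35 on the log2 scale.

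**Figure D4:**
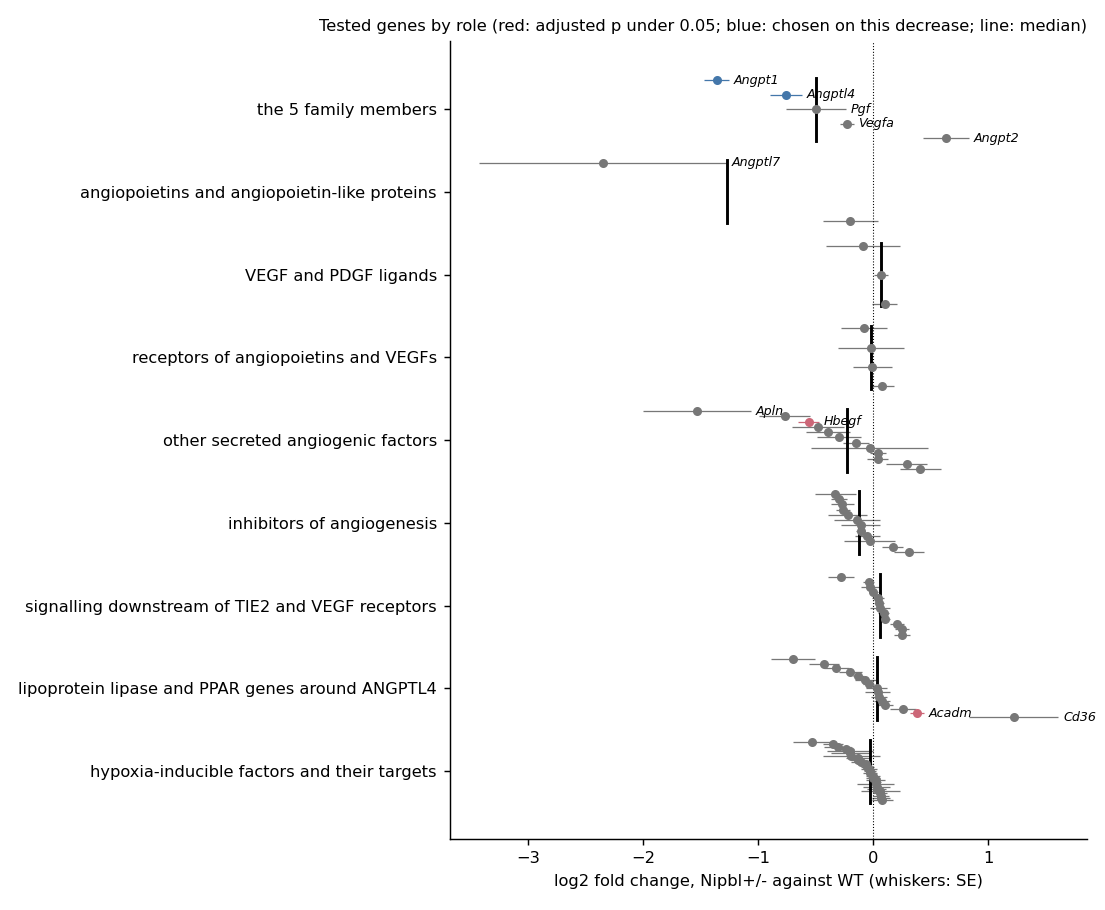
Log2 fold change of Nipbl+/- against WT MEFs (horizontal axis; whiskers are standard errors) of the tested genes of each list (vertical axis), with the list's median as a black line. Angpt1 and Angptl4, in blue, chose the group, Hbegf and Acadm, in red, passed the threshold, and the receptors lie close to 0.

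Markers of other cell types were read beside these values. Of 17 fibroblast markers, 13 lie on the plus strand, and the 4 tested were expressed and did not share a direction. Fn1, fibronectin, had 16029 ± 1449 CPM in WT against 17361 ± 1059 in Nipbl+/- MEFs (SD, n = 3 each), a log2 fold change of 0.12. Fap had a log2 fold change of 0.64 without overlap, Prrx1 one of -0.30 without overlap and Col6a1 one of -0.50 with overlap, and none of the 4 passed the threshold (edgeR adjusted p = 0.478 for Fn1, 0.181 for Fap, 0.0661 for Prrx1 and 0.227 for Col6a1). The part of these markers in the values of the 5 genes was not tested. The 11 endothelial markers on the minus strand summed to between 95.0 and 129 CPM in WT and between 95.0 and 121 CPM in Nipbl+/- MEFs. Most of that sum was Flt1, and Pecam1, a defining marker of endothelial cells, had 1 to 8 reads in each culture. The part of endothelial cells in the values of Angpt2 was not tested.

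Adipocyte markers, which matter for Angptl4, summed to between 30.6 and 49.9 CPM in WT and between 28.2 and 35.5 CPM in Nipbl+/- MEFs. Of the defining markers Cidec had 0 reads in all 6 cultures and Plin1 had 1 read in WT replicate 1 and 0 in the others. All 4 adipocyte markers tested had a log2 fold change below 0, beside 51.6% of all tested genes, with a median of -0.33. Of the 4, only Fabp4 was lower without overlap and at an unadjusted p-value under 0.05, and 0 passed the adjusted threshold (edgeR QL). The part of adipocytes in the values of Angptl4 was not tested. Mural cell markers summed to between 5587 and 6457 CPM in WT and between 6152 and 6746 CPM in Nipbl+/- MEFs, nearly all from Acta2. Macrophage markers did separate the genotypes. All 11 tested of 19 listed had a log2 fold change above 0, beside 4386 of the 9061 tested genes, with a median of 1.04. An unadjusted p-value under 0.05 was found for 10 of the 11 (90.9%), beside 8.98% of all tested genes, and 0 passed the adjusted threshold (edgeR QL). They summed to between 59.9 and 79.1 CPM in WT and between 94.9 and 190.0 CPM in Nipbl+/- MEFs. The part of macrophages in the values of the 5 genes was not tested.

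The genes near each family member were compared with it, since Nipbl loads cohesin, which folds chromosomes into local loops. Angpt1 had a single tested gene within 500 kb, Rspo2, a secreted activator of Wnt signalling on the same chromosome across a gap of 343.8 kb, from 43020811 to 43170818. Rspo2 had 24.6, 19.4 and 36.7 CPM in WT, while Nipbl+/- MEFs had 18.2, 14.4 and 14.7 CPM. Rspo2 was thus lower without overlap, as were 10.8% of all tested genes. Its log2 fold change was -0.77 (standard error 0.22, unadjusted p = 0.00659, edgeR adjusted p = 0.113). As for Angpt1, WT replicate 3 was the highest culture and WT replicate 2 the lowest of WT. Some list genes on other chromosomes, among them Apln and Svep1, had this order of WT cultures too. A link between Rspo2 and Angpt1 was not tested.

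No tested neighbour within 500 kb of any family member passed the threshold, Rspo2 included. Around Angptl4, 20 genes were tested, with log2 fold changes from -0.15 for March2 to 0.31 for Kifc1. Around Vegfa, 13 genes lay between -0.39 for Ttbk1 and 0.35 for Tmem151b, and Tjap1 and Slc29a1 were lower without overlap. Around Angpt2, Xkr5, Gm15366 and Gm17149 had 0.24, 0.06 and 0.07, and around Pgf the 9 tested genes lay between -0.23 for Rps6kl1 and 0.38 for Prox2.

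**Figure D5:**
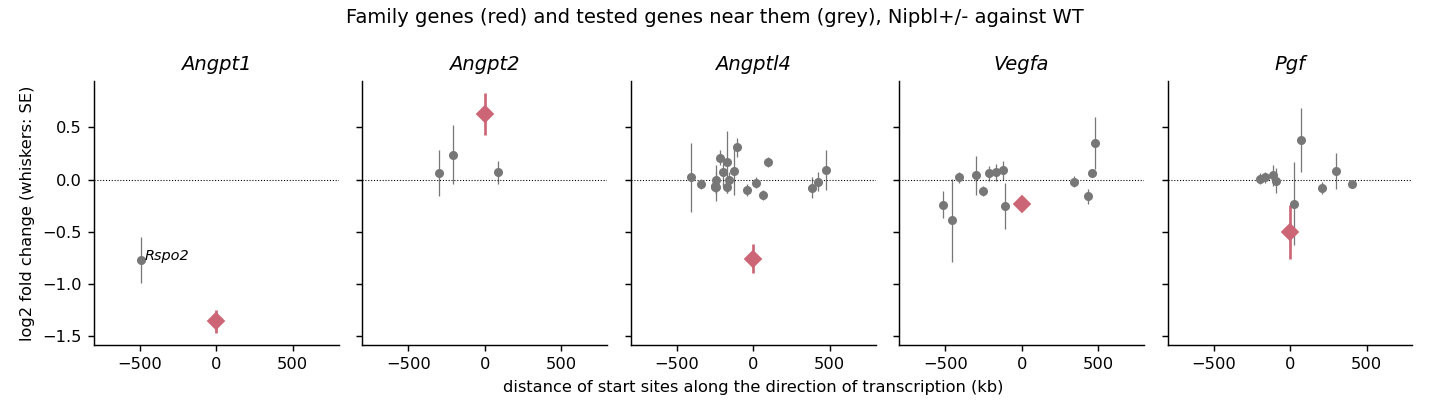
Log2 fold change (vertical axis; whiskers are standard errors) of each family gene (red) and of the tested genes within 500 kb of it (grey), by the distance between their start sites along the direction of transcription (horizontal axis, kb). Rspo2 lies upstream of Angpt1 and is below 0, and the tested neighbours of Angptl4 lie between -0.15 and 0.31.

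The genes most like each member were found by the root mean square difference of centred log2 CPM over the 6 cultures. Nearest to Angpt1 were Slc5a7, the choline transporter (difference 0.115), Nlgn1, a synaptic adhesion protein (0.173), and the transcription factor gene Gata3 (0.184). Slc5a7 had 116 ± 3.43 CPM in WT against 49.1 ± 4.64 in Nipbl+/- MEFs (SD, n = 3 each). Nearest to Angpt2 were Ankrd1 (0.061), Fap (0.070) and Chrna7 (0.074). Fap, the fibroblast activation protein, had 31.0, 37.8 and 19.0 CPM in WT, while Nipbl+/- MEFs had 46.4, 50.3 and 39.7 CPM, with WT replicate 3 lowest as for Angpt2. These genes share the 6 libraries with the members, and the nearest of 9061 genes are close by selection.

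Nearest to Angptl4 were Rgs17 (0.110), Gm25691 (0.142) and the cytokine gene Il11 (0.145), which had 14.5 ± 2.01 and 10.1 ± 1.27 CPM (SD, n = 3 each). Nearest to Vegfa were Uqcrq (0.026), Ostf1 (0.037) and Cltb (0.037), all with small differences between genotypes. Nearest to Pgf were Celf4 (0.125), Igfbp5 (0.126) and 1700056E22Rik (0.127). Igfbp5, a binding protein of insulin-like growth factors, had 199 ± 70.9 CPM in WT against 134 ± 26.4 in Nipbl+/- MEFs (SD, n = 3 each), a spread between WT cultures close to that of Pgf relative to the mean.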

How the data were processed

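Ribo-depleted RNA of 3 WT and 3 Nipbl+/- MEF cultures was sequenced, and the reads were mapped by the authors (TopHat2 2.0.10, mm10, Ensembl 72). The authors deposited a raw count and an RPKM value for each gene in each culture. The counting tool and its strand setting are not given in the sources used here. From the counts, genes were filtered with filterByExpr (minimum count 10), TMM-scaled and compared by edgeR 4.0.16 (R 4.3.3; glmQLFit and glmQLFTest, genotype alone in the model), with Benjamini-Hochberg adjustment over all 9061 tested genes and a threshold of 0.05. The standard error of a fold change was derived from its F statistic. The deposited RPKM served for levels between genes and, in limma 3.58.1 on log2(RPKM + 0.1), as an alternative. DESeq2 1.42.0 was another. The lowest total count of a culture was 20307454 reads, all in genes of the minus strand. The number of cultures limits the precision, as do low counts for genes with few reads. Replicates of a genotype differed by more than sampling noise (chi-square per degree of freedom 10.1 to 34.5). The test was checked on simulated counts.

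The 5 genes, the lists and the tests were chosen with earlier results of these data known. Named genes are the 5 members, list genes past the threshold, receptors, up to 4 genes per list with the highest level, the 3 genes nearest in pattern to each member, tested genes within 500 kb, and Nipbl. No protein sequence was used here. A few list genes that this rule names are not reported here.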

Additional observations from a re-analysis of the deposited data

How the results depend on the processing

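The direction of all 5 family genes held under the 11 other tests, scalings and filters and with each of the 6 cultures left out. Angpt1 and Angptl4 chose the group by their decrease, so their direction in these fits is a description only. For all members but Pgf the genotypes do not overlap, so that leaving out a culture could not reverse the direction. Angpt2 and Pgf kept an adjusted p-value above 0.05 throughout, and Vegfa, at a log2 fold change of -0.23, passed the threshold in DESeq2 (adjusted p = 0.0324).

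The count of all genes called depended on the test. It was 237 higher and 212 lower in DESeq2, 219 and 213 in edgeR's exact test, 224 and 218 in the likelihood ratio test, 18 and 12 in limma on RPKM, and 173 and 152 with no filter on low counts. Library size alone gave 142 higher. With a culture left out, between 1 and 130 genes were higher and between 2 and 138 were lower. The lowest counts came without Nipbl+/- replicate 1 and the highest without WT replicate 2.

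Of the 87 pathway genes, 3 were higher and 8 lower in DESeq2, beside 237 and 212 of all 9061 tested genes. With the Xist level as a covariate, 2 were higher and 4 lower, beside 100 and 94 of the 9061. In limma on RPKM the list had 0 and 0, beside 18 and 12 of the 9061. In edgeR's exact and likelihood ratio tests 5 were lower, beside 213 and 218 of the 9061. Without a filter 5 were lower, beside 152 of 13482 tested genes. With a culture left out, 0 to 2 of the 87 were higher and 0 to 6 lower, beside 1 to 130 and 2 to 138 of all tested genes. The cause of these shifts was not tested. The median of these genes stayed between -0.05 and 0.01.

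With the replicate number of the labels as a block, 34 genes were higher and 52 lower, and 0 pathway genes were higher. Acadm had an adjusted p-value of 0.0590 in that fit and Hbegf of 0.0336. Deviations of same-numbered cultures had correlations of -0.0621, -0.0364 and -0.1416 across genes, and no sample was best correlated with its own number. With so few cultures, these correlations cannot decide whether same-numbered cultures shared a batch.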
